A study of Mus musculus with 26 samples.

Results

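Ribosome biogenesis factors are the nucleolar proteins that transcribe ribosomal DNA and that cut, modify and fold its transcript into the small and large ribosomal subunits. The 35 genes described here were chosen by name as a module, and 34 of them had a row among the 23762 gene symbols of the count table. The remaining one, Noc2l, was not analysed here. All 34 passed the filter on low counts and were tested among 14862 genes. The study addresses how CXCR4, the receptor of the chemokine CXCL12, acts in late B lymphopoiesis of the mouse. RNA-seq was available from 18 libraries of B-lineage cells in 9 groups of 2, with 17257914 to 50235192 counts per library, and each factor had at least 145 counts in each library.

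The groups were CXCR4-/- cells cultured without interleukin 7 (IL-7, a cytokine on which B cell progenitors grow) with CXCL12, CXCR4-/- cells without IL-7, cells that received CXCL12 and ERK inhibitor II but no IL-7, cells without IL-7 with CXCL12, cells without IL-7, cells with IL-7 and CXCL12, cells with IL-7, and small pre-B cells that were CXCR4-/- or wild type with no culture named. Below they are called CXCR4-deficient CXCL12 cultures, CXCR4-deficient cultures without IL-7, ERK inhibitor cultures, CXCL12 cultures, cultures without IL-7, cultures with both factors, IL-7 cultures, and sorted CXCR4-deficient and sorted wild-type cells. ERK, the kinase that the inhibitor targets, carries growth signals from many receptors, and CXCR4 is among those that can activate it. The CXCR4-deficient cultures were labelled as small pre-B cells and the others as pre-B cells, except that replicate 2 without IL-7 was titled as small pre-B cells, and the table, unlike the title, so named replicate 2 with CXCL12. The sources used here do not state how Cxcr4 was deleted, the age of the mice or the doses and times of the agents. Nothing in the labels ties the 2 libraries of a group to separate mice or cultures, so each p-value refers to the spread between libraries, which may be technical.

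Ribosome production starts in the nucleolus, where RNA polymerase I copies ribosomal DNA into 1 long precursor. Small nucleolar ribonucleoproteins (snoRNPs) guide its chemical modification, the small subunit processome and later factors make the small subunit, and a separate set of factors makes the large subunit. In B cell progenitors IL-7 drives growth and division, and the transcription factor MYC is known to raise transcription of many genes of this pathway.

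Promoter sequences were available for 30 of the 34 factors (RefSeq, GRCm38.p6, from 250 bases before to 50 bases after the gene start). The E-box CACGTG, the sequence recognised by MYC with its partner MAX, which reads alike on both strands, was found in 5 of these 30 (16.7%). It was found in 11.2% of the 10659 genes tested that had an entry and in 8.09% of all 27025 entries. The ETS core CCGGAAG, on either strand, was present in 7 of the 30 (23.3%), against 18.3% of genes tested and 9.93% of all entries. The sequence TCTCGCG, on either strand, was present in 4 (13.3%), against 5.61% and 2.92%. These matches describe letters in the window and no binding was measured. The E-box was absent from most of these 30 promoters, and its part in the changes of the factors was not tested. Of the 5 matches, 4 are printed, 5′ to 3′ on the strand of the gene with the E-box in capitals, and the match in Utp20 lies farther downstream.
Wdr43 (chr17:71616192-71616244, plus strand): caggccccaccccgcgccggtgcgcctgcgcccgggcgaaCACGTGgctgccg
Utp18 (chr11:93885741-93885826, minus strand): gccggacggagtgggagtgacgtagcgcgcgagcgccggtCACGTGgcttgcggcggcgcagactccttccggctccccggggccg
Pes1 (chr11:3963937-3964004, plus strand): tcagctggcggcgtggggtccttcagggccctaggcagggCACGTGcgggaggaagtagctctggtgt
Nop2 (chr6:125131783-125131868, plus strand): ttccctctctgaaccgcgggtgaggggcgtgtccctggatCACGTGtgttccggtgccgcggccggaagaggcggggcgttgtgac
The E-box starts 60 bases before the gene start in Nop2 and 20 bases before it in Utp18. In Pes1 it starts at base 3 and in Wdr43 at base 18 of the transcript. Another feature the choice of genes did not use was the snoRNA genes they host. Ncl, Nop56, Nop58, Dkc1, Wdr43 and Gnl3 held 18 annotated snoRNA genes within their span, 6 of the 34 factors, against 287 of the 12827 protein-coding genes tested (2.24%).

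Several libraries stood apart. Cxcr4 was measured at 37.2 and 409 CPM (counts scaled to a common library total after TMM normalization) in the sorted libraries labelled CXCR4-deficient, against 943 and 922 CPM in sorted wild-type cells, so replicate 2 goes against its label in part. The cultures labelled CXCR4-deficient held 114 to 137 CPM, against 169 to 237 CPM in the sufficient cultures of the same media. IL-7 cultures, also sufficient, held 113 and 112 CPM. Between cultures of the 2 genotypes Cxcr4 was not called (edgeR adjusted p = 0.315 with CXCL12 and 0.529 without IL-7). Which part of Cxcr4 is missing is unknown here, reads from a remaining part would still count, and every direction by genotype below rests on the labels. Gapdh, a glycolytic enzyme, reached 1399 to 1730.0 CPM in the 4 libraries with both factors or the ERK inhibitor, against at most 12.3 CPM in the other 14, and Rps29 behaved alike. Any comparison across that line cannot be told apart from this difference between libraries. The 2 CXCR4-deficient cultures without IL-7 differed from each other more than any other pair. Among the factors their median absolute log2 difference was 0.33, against 0.03 to 0.11 in the other 8 groups. Cd79a, which marks B-lineage cells, was present throughout, at 465 to 1317 CPM.

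The 34 factors together made up the largest share of counts in cultures with both factors (0.838% and 0.837%), in CXCR4-deficient cultures without IL-7 (0.785% and 0.829%) and with CXCL12 (0.782% and 0.792%), and in IL-7 cultures (0.740% and 0.759%). ERK inhibitor cultures followed with 0.548% and 0.540%, then cultures without IL-7 with 0.430% and 0.434% and CXCL12 cultures with 0.302% and 0.305%. Sorted cells were lowest, with 0.260% and 0.257% in CXCR4-deficient and 0.267% and 0.265% in wild-type cells. CXCR4-deficient cultures with and without CXCL12 overlapped in this share, and sorted cells of the 2 genotypes lay close together. In bulk RNA such a share cannot tell fewer cells of a type from less RNA per cell. The highest group mean belonged to CXCR4-deficient cultures without IL-7 for 19 factors, to cultures with both factors for 14 and to CXCR4-deficient CXCL12 cultures for 1. The lowest belonged to sorted CXCR4-deficient cells for 18, to sorted wild-type cells for 10 and to CXCL12 cultures for 6. The ratio of the highest to the lowest group mean had a median of 3.68 over the factors and ran from 2.00 to 7.62, apart from 36.7 for Fbl.

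**Figure D1:**
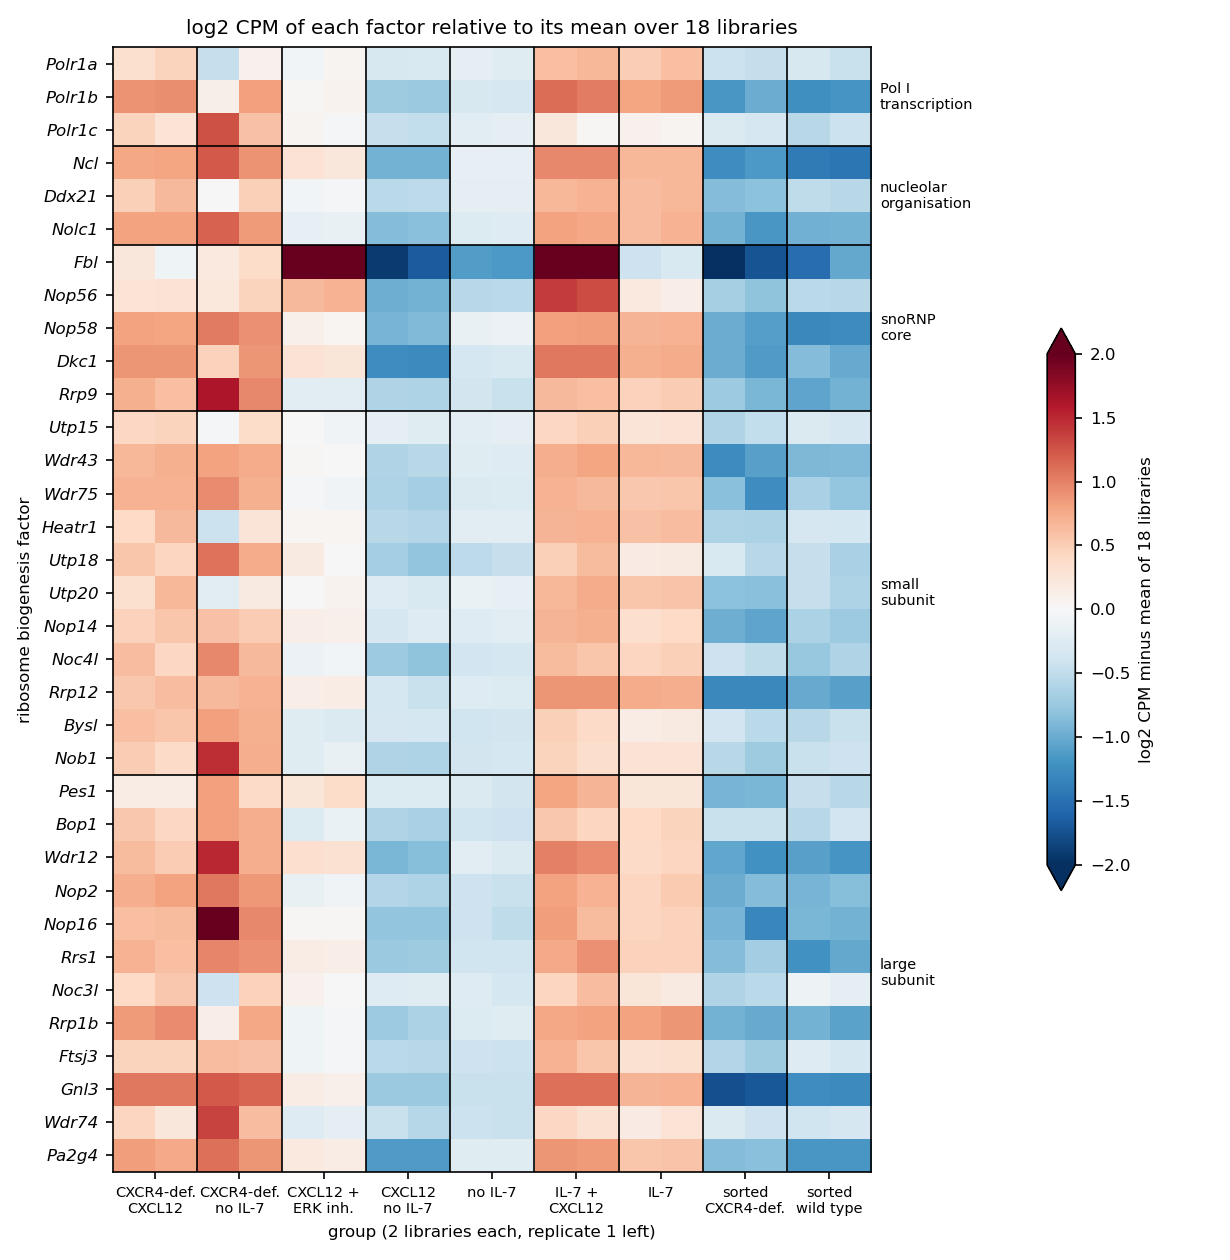
Level of each of the 34 factors (rows, ordered by role) in each of 18 libraries (columns, 2 per group), as log2 CPM minus the mean of that factor over the 18 libraries. Most rows are red in the CXCR4-deficient cultures and in the cultures with IL-7, pale in ERK inhibitor cultures and blue in CXCL12 cultures and sorted cells, and Fbl (160 to 271 CPM in the 4 Gapdh-high libraries, 6.30 to 32.7 CPM elsewhere) goes past the colour scale.

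The loss of IL-7 was examined by comparing cultures without IL-7 with IL-7 cultures. The factors were lower without IL-7 in every role, and each of the 34 estimates was below 0. Of the 34, 32 fell at an adjusted p under 0.05 (edgeR quasi-likelihood test, Benjamini-Hochberg over all genes), beside 6.23% of all genes tested. The median log2 change of the factors was -0.82 and that of all genes was 0.05. Without any 1 of the 4 libraries, 23 to 27 fell, and 22 did so whichever library was left out. With the pair without IL-7 and the pair of CXCL12 cultures each counted as 1 library, 19 fell.

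Among the subunits of RNA polymerase I, Polr1b, the second largest, had 37.2 and 36.8 CPM without IL-7, against 79.9 and 83.9 CPM with IL-7. This was the largest fall of any factor (log2 change -1.15 ± 0.16, adjusted p = 0.000838). Polr1a, the largest and catalytic subunit, had 73.9 and 71.8 CPM without IL-7, against 119.9 and 129 CPM with it (log2 change -0.77 ± 0.14, adjusted p = 0.00338). Both pairs of libraries were far apart, with each library without IL-7 below each with it. Polr1c, a subunit that RNA polymerases I and III share, did not pass (log2 change -0.27 ± 0.16, adjusted p = 0.357). Nucleolin, encoded by Ncl and an abundant RNA-binding protein of the nucleolus, stood at 1401 and 1409.5 CPM without IL-7, against 2484 and 2502 CPM with it (log2 change -0.83 ± 0.09, adjusted p = 0.000179). The nucleolar helicase Ddx21 reached 292 and 291 CPM without IL-7, against 508 and 526 CPM with it (log2 change -0.83 ± 0.12, adjusted p = 0.00105). The libraries of a group were close in these genes and the groups did not overlap. Nolc1, the snoRNP chaperone Nopp140, fell as well (log2 change -0.93 ± 0.10).

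All 5 snoRNP proteins fell. Dkc1, the pseudouridine synthase of box H/ACA snoRNPs, had 102 and 106 CPM without IL-7, against 214 and 218 CPM with IL-7 (log2 change -1.06 ± 0.12, adjusted p = 0.000155). The box C/D core protein Nop58 had 182 and 187 CPM without IL-7, against 323 and 327 CPM with IL-7 (log2 change -0.81 ± 0.07, adjusted p = 3.91e-05). Its partner Nop56 had 99.0 and 100.3 CPM without IL-7, against 167 and 159.6 CPM with IL-7 (log2 change -0.71 ± 0.09, adjusted p = 0.000277). In each the libraries without IL-7 lay well below those with it. The methyltransferase fibrillarin, encoded by Fbl, changed by -0.77 ± 0.16 and the U3 snoRNP protein Rrp9 by -0.90 ± 0.16, and both calls ended without at least 1 library (adjusted p up to 0.0835 and 0.0504).

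The 11 small subunit factors all fell, with log2 changes of -0.46 to -0.997. Wdr43, of the UTP-A complex that binds the start of the precursor, had 134 and 132 CPM without IL-7, against 250.1 and 248 CPM with IL-7 (log2 change -0.91 ± 0.07, adjusted p = 1.91e-05). Heatr1, of the same complex, had 116 and 116 CPM without IL-7, against 203 and 209 CPM with IL-7 (log2 change -0.83 ± 0.16, adjusted p = 0.00638), a call that ended without some libraries (adjusted p up to 0.0634). The largest fall in this role belonged to Rrp12, which takes part in export of pre-ribosomes (34.1 and 33.96 CPM without IL-7, against 68.4 and 67.5 CPM with IL-7, log2 change -0.997 ± 0.07, adjusted p = 1.14e-05). These groups did not overlap. Smaller changes were seen in Utp15 (-0.46 ± 0.11), also of the UTP-A complex, in bystin, encoded by Bysl (-0.55 ± 0.08), and in Nop14 of the processome (-0.61 ± 0.07), and the call of Utp15 ended without some libraries (adjusted p up to 0.122).

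Of the 12 large subunit factors 11 fell. Pa2g4, the ribosome-binding protein EBP1, had 348 and 347 CPM without IL-7, against 599.8 and 611 CPM with IL-7 (log2 change -0.80 ± 0.08, adjusted p = 6.57e-05). The ribosomal RNA methyltransferase Ftsj3 had 103 and 103 CPM without IL-7, against 171 and 173 CPM with IL-7 (log2 change -0.74 ± 0.08, adjusted p = 9.54e-05). Each library without IL-7 was below each with IL-7. The nucleolar GTP-binding protein nucleostemin, encoded by Gnl3, had the lowest p of any factor (log2 change -1.14 ± 0.06, adjusted p = 3.86e-06). Within the PeBoW complex, which joins 3 of the factors in pre-60S particles, Bop1 changed by -0.83 ± 0.09, Wdr12 by -0.66 ± 0.18 and Pes1 by -0.58 ± 0.12. Without some libraries the calls of Wdr12 and Pes1 ended (adjusted p up to 0.193 and 0.079). Noc3l, of the NOC complex, did not pass (log2 change -0.52 ± 0.20, adjusted p = 0.118).

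**Figure D2:**
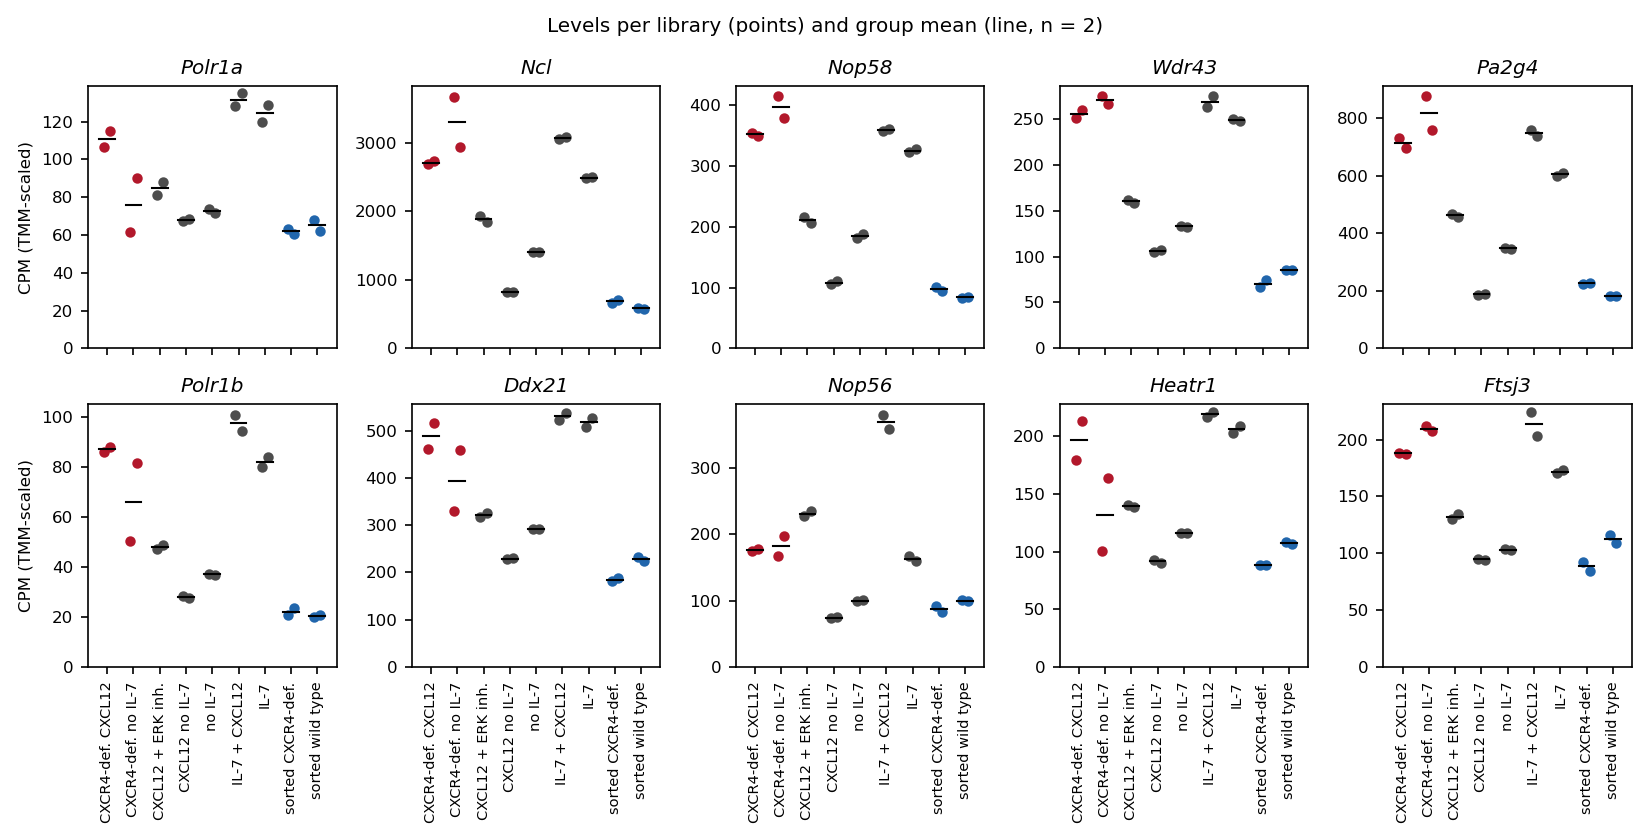
CPM per library (points) and group mean (line, n = 2) of the 2 factors of each role with the highest mean log2 CPM, with CXCR4-deficient cultures in red, other cultures in grey and sorted cells in blue. Ncl stands at 821 and 822 CPM in CXCL12 cultures, 1401 and 1409.5 CPM in cultures without IL-7, and 2484 and 2502 CPM in IL-7 cultures.

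Other genes of the pathway, from lists of factors outside the 34, were counted in the same comparison. Of 11 other RNA polymerase I genes 4 fell, among them the subunits Cd3eap (-1.05 ± 0.22) and Polr1e (-0.61 ± 0.17) and the initiation factor Rrn3 (-0.39 ± 0.07). Of 10 other snoRNP genes 6 fell, including the assembly factors Naf1 (-0.80 ± 0.11) and Shq1 (-0.73 ± 0.13). For the small subunit 28 of 42 fell, such as the processome component Cirh1a (-0.90 ± 0.08) and the GTPase-like factor Tsr1 (-0.85 ± 0.06). The large subunit list gave 22 of 42, such as Nle1 (-0.98 ± 0.11) and Gtpbp4 (-0.56 ± 0.07), both of pre-60S assembly. RNA exosome genes gave 4 of 14 and RNA polymerase III genes 2 of 20. List medians ran from -0.15 for RNA polymerase III to -0.71 for snoRNP genes, and the median of all genes was 0.05. Myc had 84.1 and 84.5 CPM without IL-7, against 159 and 164 CPM with IL-7 (log2 change -0.94 ± 0.08, adjusted p = 2.1e-05). The marker of dividing cells Mki67 had 2019 and 1995 CPM without IL-7, against 1771 and 1705 CPM with IL-7 and did not pass (log2 change 0.21 ± 0.14, adjusted p = 0.402). The 13 proliferation markers summed to 6681 and 6629 CPM without IL-7, against 6438 and 6369 CPM with IL-7, close in all 4 libraries. Stromal markers summed to 1303 and 1284 CPM without IL-7, against 538 and 928 CPM with IL-7 with Lum at 0 in both groups, and myeloid markers to 285 and 287 CPM, against 149 and 208 CPM. Their part in the falls was not tested.

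Next, CXCL12 cultures were set against cultures without IL-7, to follow the chemokine in the absence of the growth factor. Of the 34 factors 14 fell with CXCL12, and 31 estimates were below 0, beside 13.2% of all genes called lower. The median log2 change was -0.31 over the factors and 0.09 over all genes. By role, all 3 proteins of nucleolar organisation and 4 of 5 snoRNP proteins fell, as did 3 of 11 small subunit factors and 4 of 12 large subunit factors, and the RNA polymerase I subunits did not pass. The counts by role were not tested against each other.

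Dkc1 had 55.0 and 53.9 CPM with CXCL12, against 102 and 106 CPM without, the largest fall (log2 change -0.93 ± 0.12, adjusted p = 1e-04). Pa2g4 stood at 187 and 188 CPM with CXCL12 and 348 and 347 CPM without (log2 change -0.89 ± 0.08, adjusted p = 4.94e-06). Nop58 had 106 and 110.1 CPM with CXCL12, against 182 and 187 CPM without (log2 change -0.77 ± 0.07, adjusted p = 9.43e-06). In these 3 the libraries with CXCL12 were all well below the others. Ncl had 821 and 822 CPM with CXCL12, against 1401 and 1409.5 CPM without (log2 change -0.77 ± 0.09, adjusted p = 7.25e-05), and Nop56 had 73.6 and 75.3 CPM, against 99.0 and 100.3 CPM (log2 change -0.42 ± 0.09, adjusted p = 0.00333). The polymerase subunits Polr1a (-0.10 ± 0.14) and Polr1b (-0.40 ± 0.16) did not pass, nor did Heatr1 (-0.34 ± 0.16) and Ftsj3 (-0.12 ± 0.08).

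Fewer calls held when a library was left out. Without replicates 1 or 2 of the CXCL12 cultures 7 and 9 factors fell, and without replicates 1 or 2 of the cultures without IL-7 8 fell in each case. Ncl, Nolc1, Nop56, Nop58, Dkc1, Gnl3 and Pa2g4 fell in all 4. The call ended without at least 1 library for Wdr43 (log2 change -0.32 ± 0.07, adjusted p up to 0.0583) and Ddx21 (-0.35 ± 0.12, up to 0.176). With these pairs each counted as 1 library 4 factors fell, Ncl, Nop58, Dkc1 and Pa2g4, and with the 2 groups fitted alone 31 fell. Other markers moved too. All 13 proliferation markers fell, their sum being 2297 and 2289.6 CPM with CXCL12, against 6681 and 6629 CPM without. Stromal markers summed to 3265 and 3199 CPM, against 1303 and 1284 CPM, with 5 of 11 tested called higher and Lum at 0. Myeloid markers summed to 718 and 714 CPM, against 285 and 287 CPM, with 3 of 12 called higher. The part of these shifts in the falls was not tested. Myc fell in the same comparison (27.7 and 25.2 CPM, against 84.1 and 84.5 CPM, log2 change -1.67 ± 0.08, adjusted p = 6.51e-08), as did Mki67 (779 and 774 CPM, against 2019 and 1995 CPM, log2 change -1.37 ± 0.14, adjusted p = 2.11e-05).

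**Figure D3:**
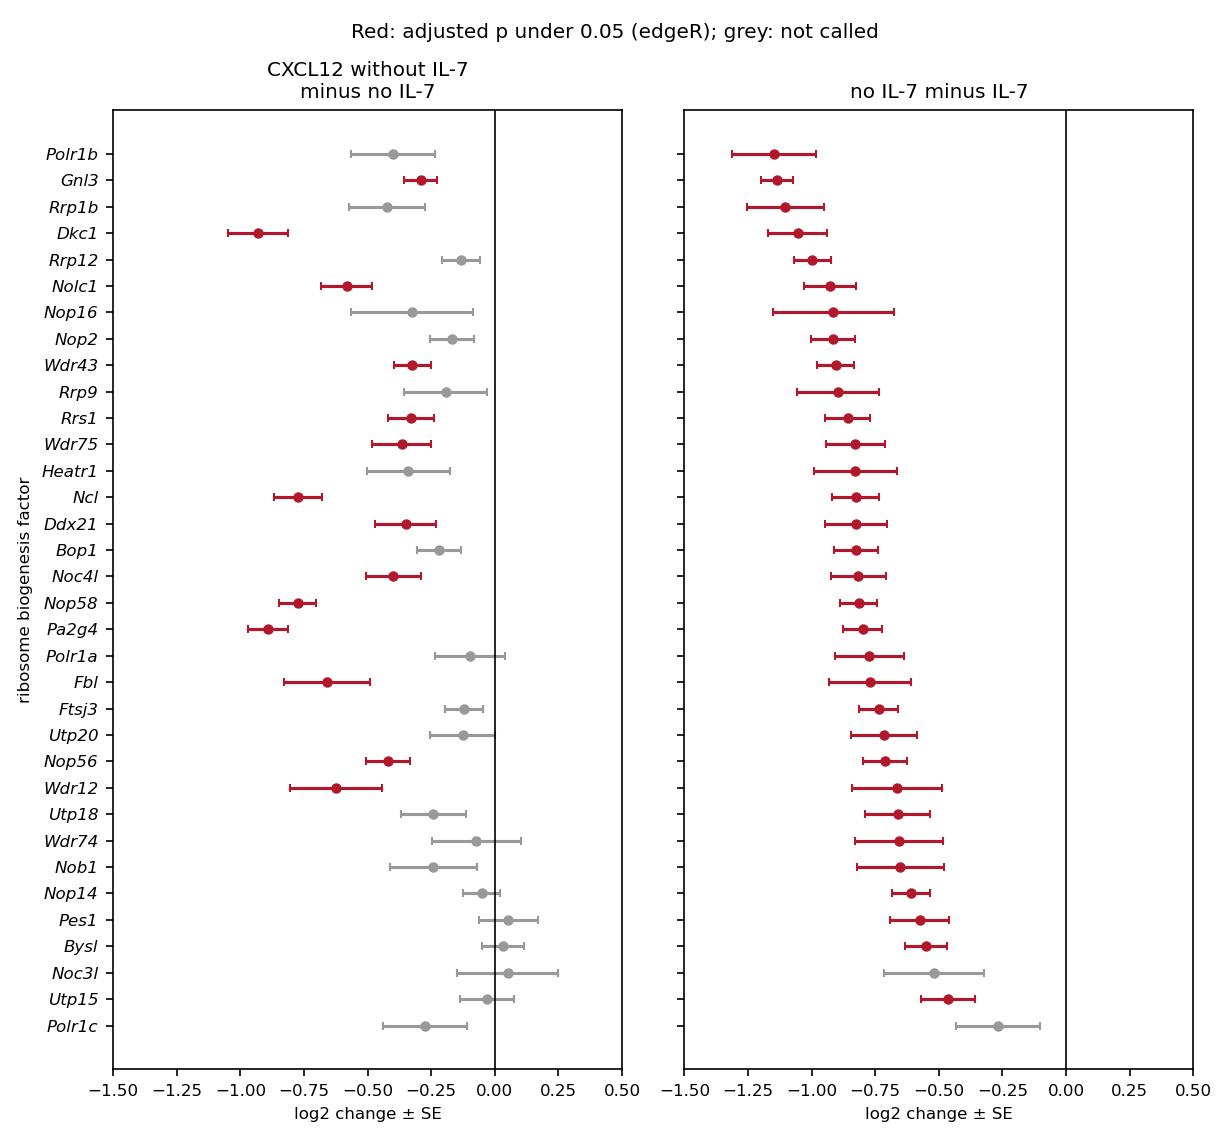
Log2 change ± SE of each factor in CXCL12 cultures minus cultures without IL-7 (left) and in cultures without IL-7 minus IL-7 cultures (right), ordered by the right panel, red where the adjusted p was under 0.05. On the right 32 of 34 are red and all lie left of 0. On the left 14 are red, with Dkc1 at -0.93 and Pa2g4 at -0.89.

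Against IL-7 cultures, which share libraries with both comparisons above, 33 of the factors fell in CXCL12 cultures (21.5% of all genes were called lower), with a median log2 change of -1.15 against 0.12 over all genes. Noc3l was the exception (log2 change -0.47 ± 0.20, adjusted p = 0.0653). Dkc1 had the largest fall (log2 change -1.99 ± 0.12, adjusted p = 1.13e-07), with the library values given above, followed by Pa2g4 (-1.69 ± 0.08), Ncl (-1.60 ± 0.10) and Nop58 (-1.59 ± 0.07). The smallest falls were those of Utp15 (-0.50 ± 0.11), Bysl (-0.52 ± 0.08) and Pes1 (-0.52 ± 0.12). Of these calls 32 held without any 1 of the 4 libraries. All 13 proliferation markers fell too (median log2 change -1.48), with sums of 2297 and 2289.6 CPM in CXCL12 cultures, against 6438 and 6369 CPM in IL-7 cultures. Of the myeloid markers 11 of 12 were higher, summing to 718 and 714 CPM, against 149 and 208 CPM. Of the stromal markers tested 10 of 11 were higher, summing to 3265 and 3199 CPM, against 538 and 928 CPM. Their part in the falls was not tested.

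A separate set of libraries also compared cultures without and with IL-7, both with CXCL12 and the state without IL-7 with ERK inhibitor II. These 4 are the Gapdh-high libraries and share none with the comparison of cultures without and with IL-7. Loss of IL-7 and addition of the inhibitor cannot be told apart in them. Of the 34 factors 31 fell in ERK inhibitor cultures, and each estimate was below 0, beside 4.54% of all genes called lower. The median log2 change was -0.69 over the factors and -0.01 over all genes. These 31 were also among the 32 that fell in cultures without IL-7, Nop16 being the only difference (log2 change -0.71 ± 0.24, adjusted p = 0.0821). With nearly all of the 34 called in each comparison, most of this overlap was fixed in advance. The spread of each gene was estimated jointly over all libraries, so the calls of the 2 comparisons are not independent. The overlap over all genes was not counted. Polr1b again fell most, at 47.1 and 48.9 CPM in ERK inhibitor cultures, against 101 and 94.5 CPM with both factors (log2 change -1.03 ± 0.16, adjusted p = 0.00158). Ncl had 1929.7 and 1844 CPM with the inhibitor, against 3054 and 3080.0 CPM with both factors (log2 change -0.70 ± 0.09, adjusted p = 0.000531). Nop58 had 217 and 207 CPM with the inhibitor, against 357 and 361 CPM with both factors (log2 change -0.76 ± 0.07, adjusted p = 7.33e-05). Libraries of the 2 groups did not overlap in any of them. Wdr43 had 161 and 159 CPM, against 262 and 275 CPM (log2 change -0.75 ± 0.07, adjusted p = 7.7e-05), and Ftsj3 had 129.9 and 135 CPM, against 224 and 204 CPM (log2 change -0.69 ± 0.08, adjusted p = 0.000138). Without any 1 library 21 to 24 fell. Myc had 73.4 and 72.4 CPM with the inhibitor, against 187 and 186 CPM with both factors (log2 change -1.35 ± 0.08, adjusted p = 3.38e-06), while Mki67 did not pass (log2 change -0.08 ± 0.14). Myeloid markers summed to 3260.3 and 3338 CPM with the inhibitor, against 1709.7 and 1566 CPM with both factors, with 4 of 12 called higher and 6 estimates on each side of 0. Stromal markers summed to 89.4 and 97.4 CPM, against 29.5 and 30.6 CPM, with 8 of 11 tested called higher (median log2 change 1.98). Their part in the falls was not tested.

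The effect of the ERK inhibitor itself was read against CXCL12 cultures, across the line between Gapdh-high and other libraries. Of the factors 26 were higher in ERK inhibitor cultures and all 34 estimates were above 0, beside 26.9% of all genes called higher. The median log2 change was 0.60 over the factors and -0.02 over all genes. Ncl had 1929.7 and 1844 CPM with the inhibitor, against 821 and 822 CPM without it (log2 change 1.20 ± 0.09, adjusted p = 4.79e-07). Dkc1 had 159 and 154 CPM with the inhibitor, against 55.0 and 53.9 CPM without it (log2 change 1.52 ± 0.12, adjusted p = 4.51e-07). Pa2g4 had 468 and 457 CPM with the inhibitor, against 187 and 188 CPM without it (log2 change 1.30 ± 0.08, adjusted p = 5.29e-08). In all 3 the levels with the inhibitor were well above those without. Not called were Polr1a, Rrp9, Utp15, Utp20, Bysl, Nob1, Noc3l and Wdr74. Without any 1 library 24 or 25 rose. The 13 proliferation markers all rose, their sum being 6636 and 6719 CPM, against 2297 and 2289.6 CPM. Stromal markers summed to 89.4 and 97.4 CPM, against 3265 and 3199 CPM, and myeloid markers to 3260.3 and 3338 CPM, against 718 and 714 CPM. T cell markers were higher in 8 of 8, and pre-B markers were lower in 7 of 10 and mature B cell markers in 6 of 7. The part of these shifts was not tested.

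Fbl stood apart from the other factors by that line. It had 159.7 and 173 CPM in ERK inhibitor cultures, against 6.74 and 7.98 CPM in CXCL12 cultures (log2 change 4.51 ± 0.18, adjusted p = 2.86e-09), and 271 and 241 CPM with both factors, against 18.9 and 20.5 CPM with IL-7 (log2 change 3.70 ± 0.17, adjusted p = 2.23e-08). The 4 Gapdh-high libraries lay above the other 14 in Fbl and Nop56 and in no other factor. The share of all genes tested that behaved in this way was not counted. Among the 10 other snoRNP genes, which are not in the module, the largest log2 changes in the same comparisons were alike. They were 4.61 with the ERK inhibitor (median 0.92) and 3.71 with both factors (median 0.19). An Fbl pseudogene, Fbl-ps2, is annotated, and the handling of reads that match more than 1 place is not stated in the sources used here, so the level of Fbl is uncertain. Within each set of libraries Fbl fell with the other snoRNP proteins (log2 change -0.77 ± 0.16 without against with IL-7 and -0.62 ± 0.16 in ERK inhibitor cultures against both factors). Leaving Fbl aside, the ratio of highest to lowest group mean over the factors was at most 7.62.

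CXCL12 added to IL-7, a comparison that crosses the same line, gave small differences in the factors apart from Fbl and Nop56. With both factors 14 of the 34 were higher than with IL-7, beside 15.3% of all genes, and the median log2 change was 0.22, against -0.03 over all genes. Nop56 had 381 and 359.8 CPM with both factors, against 167 and 159.6 CPM with IL-7 (log2 change 1.18 ± 0.09, adjusted p = 9.53e-07). Gnl3 rose by a log2 change of 0.41 ± 0.06, adjusted p = 0.000372. Of the 14, Fbl, Nop56 and Gnl3 were called without each library in turn. Without replicates 1 or 2 with IL-7 the counts were 5 and 8, and without replicates 1 or 2 with both factors 4 and 5. With the 2 groups fitted alone 28 were called, and with the pairs of close libraries summed 8. Polr1a (0.08 ± 0.14), Ddx21 (0.04 ± 0.12), Wdr43 (0.11 ± 0.07) and Heatr1 (0.09 ± 0.16) did not pass. Myc did not pass either (log2 change 0.21 ± 0.08, adjusted p = 0.0568). Markers of other cells differed strongly. Myeloid markers summed to 1709.7 and 1566 CPM with both factors, against 149 and 208 CPM with IL-7, with 11 of 12 called higher. Stromal markers summed to 29.5 and 30.6 CPM, against 538 and 928 CPM, with 10 of 11 tested called lower and Lum at 0 in both groups. T cell markers summed to 126 and 115 CPM, against 74.9 and 73.1 CPM, with 7 of 8 called higher. The sum of 8 RNA stress genes was 1238 and 1228 CPM, against 329 and 349 CPM, with 2 called higher and 1 lower. Their part in the differences was not tested.

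**Figure D4:**
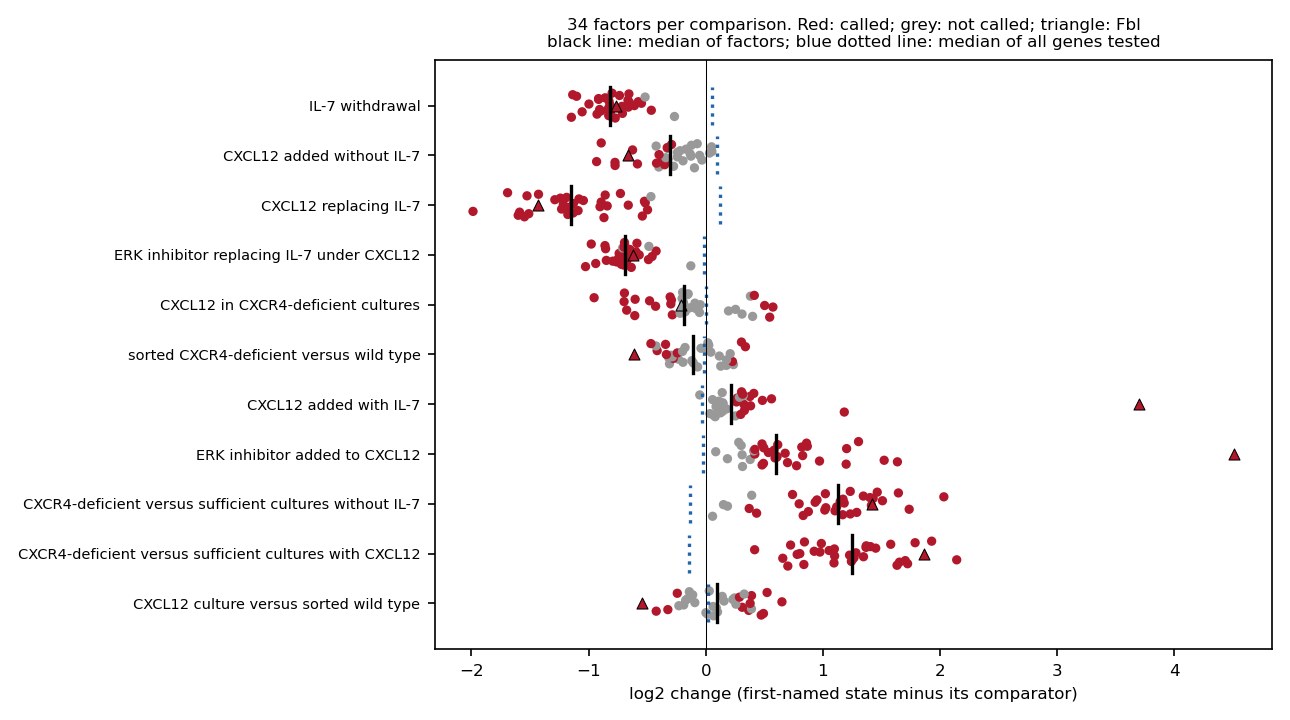
Log2 change of each of the 34 factors (points, red where called, Fbl as a triangle) in 11 comparisons, with the median of the factors (black line) and of all 14862 genes tested (blue dotted line). The factors lie left of 0 on IL-7 withdrawal (median -0.82), where CXCL12 replaces IL-7 (-1.15) and where the ERK inhibitor replaces IL-7 under CXCL12 (-0.69). They lie right of 0 in CXCR4-deficient against sufficient cultures (medians 1.13 and 1.25).

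In cultures labelled CXCR4-deficient the factors were well above the sufficient cultures of the same medium. With CXCL12 all 34 were higher, beside 27.3% of all genes, with a median log2 change of 1.25 against -0.14 over all genes, and all 34 held without any 1 library. Without IL-7 alone 30 were higher, beside 31.0% of all genes, with a median of 1.13 against -0.13. Here Polr1a, Heatr1, Utp20 and Noc3l did not pass. With the 2 groups without IL-7 fitted alone, 20 were called higher. Without replicate 2 of the CXCR4-deficient cultures without IL-7, Polr1a and Heatr1 were called lower (log2 changes -0.25 and -0.21), and without replicate 1 of that group all 34 were higher.

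Dkc1 had 241 and 241 CPM in CXCR4-deficient CXCL12 cultures, against 55.0 and 53.9 CPM in sufficient ones (log2 change 2.14 ± 0.12, adjusted p = 2.44e-08). Pa2g4 had 729 and 697 CPM in CXCR4-deficient CXCL12 cultures, against 187 and 188 CPM in sufficient ones (log2 change 1.93 ± 0.08, adjusted p = 2.54e-09). Polr1b had 86.0 and 87.8 CPM, against 28.4 and 27.6 CPM (log2 change 1.63 ± 0.17, adjusted p = 3.57e-06). These levels were several times apart and the groups did not overlap. Without IL-7 alone, Ncl had 3677 and 2937 CPM in CXCR4-deficient cultures, against 1401 and 1409.5 CPM in sufficient ones (log2 change 1.23 ± 0.09, adjusted p = 9.63e-07). Nop16, of early pre-60S assembly, had 178 and 87.0 CPM, against 33.5 and 31.3 CPM (log2 change 2.03 ± 0.25, adjusted p = 2.77e-05), the largest difference, with the 2 deficient libraries far apart. Myc had 201 and 187 CPM in CXCR4-deficient CXCL12 cultures, against 27.7 and 25.2 CPM in sufficient ones (log2 change 2.87 ± 0.08, adjusted p = 3.87e-10), and 207 and 211 CPM without IL-7, against 84.1 and 84.5 CPM (log2 change 1.31 ± 0.08, adjusted p = 1.83e-07). Of the genes outside the 34, with CXCL12 8 of 11 RNA polymerase I genes, all 10 snoRNP genes, 36 of 42 small subunit factors, 33 of 42 large subunit factors and 13 of 14 exosome genes were higher. RNA polymerase III genes went both ways, with 7 of 20 higher and 5 lower (median log2 change 0.14).

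The cultures of the 2 genotypes also differed in markers of other cells. Myeloid markers summed to 15.1 to 21.4 CPM in the 4 CXCR4-deficient cultures, against 285 to 718 CPM in the 4 sufficient cultures of the same media, and stromal markers to 4.09 to 10.1 CPM, against 1284 to 3265 CPM. All 12 myeloid markers and 10 of 11 stromal markers tested were lower in both comparisons. In CXCR4-deficient CXCL12 cultures S100a8, Elane, Ctsg and Vcam1 were at 0, and without IL-7 Elane, Csf3r, Pdgfra, Postn and Vcam1. Mature B cell markers were lower in 6 of 7 with CXCL12 and 5 of 7 without IL-7. All 13 proliferation markers were higher with CXCL12, and without IL-7 10 were higher and 1, Mki67, was lower. Without IL-7 Mki67 had 1021 and 1403 CPM in CXCR4-deficient cultures, against 2019 and 1995 CPM in sufficient ones (log2 change -0.73 ± 0.14, edgeR adjusted p = 0.000728). With CXCL12 its log2 change was 1.32 ± 0.14. The part of all these markers was not tested, and the labels put genotype together with the stage named for the cells.

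Within CXCR4-deficient cultures, CXCL12 gave no single direction. Of the 34 factors 4 were higher and 12 lower with CXCL12, beside 12.8% and 21.0% of all genes, and the median log2 change was -0.18, against 0.00 over all genes. Heatr1 had 179.6 and 214 CPM with CXCL12, against 101 and 164 CPM without (log2 change 0.57 ± 0.16, adjusted p = 0.024). Nop16 had 67.8 and 69.4 CPM with CXCL12, against 178 and 87.0 CPM without (log2 change -0.95 ± 0.24, adjusted p = 0.0218). For both, the 2 libraries without CXCL12 lay further from each other than 1 of them did from the CXCL12 libraries. All 16 calls ended without replicate 1 or without replicate 2 of the CXCR4-deficient CXCL12 cultures, with the 2 groups fitted alone and without the 4 Gapdh-high libraries. Without replicate 1 of the group lacking CXCL12 the 12 lower calls ended and 2 factors were higher, and without its replicate 2 9 were higher and 18 lower.

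The difference of the CXCL12 effect between the genotypes was tested as an interaction, the change with CXCL12 in CXCR4-deficient minus that in sufficient cultures. It was above 0 in 11 factors and below 0 in 1, beside 12.1% and 13.1% of all genes, with a median of 0.19 against -0.14. Dkc1 had the largest difference, its log2 change with CXCL12 being 0.19 ± 0.12 in CXCR4-deficient cultures and -0.93 ± 0.12 in sufficient ones (difference 1.13 ± 0.16, adjusted p = 0.000521). For Pa2g4 the changes were -0.20 ± 0.08 in CXCR4-deficient and -0.89 ± 0.08 in sufficient cultures (difference 0.69 ± 0.11, adjusted p = 0.000859). Nop58 gave -0.17 ± 0.07 in CXCR4-deficient and -0.77 ± 0.07 in sufficient cultures (difference 0.60 ± 0.10, adjusted p = 0.00154). These 3 kept the call without each of the 8 libraries in turn, with the groups fitted alone and with close pairs summed. The other 8, Polr1a, Polr1b, Ncl, Ddx21, Nop56, Heatr1, Utp20 and Rrp1b, lost it without at least 1 library. So did Pes1, the factor with a lower value (difference -0.53 ± 0.16, adjusted p = 0.0324). The count above 0 was 3 without replicate 2 of the CXCR4-deficient CXCL12 cultures and 17 without replicate 1 of the CXCR4-deficient cultures without IL-7. Without any 1 of the 4 sufficient libraries it was 4 or 5. The count below 0 was 8 without replicate 2 of the CXCR4-deficient cultures without IL-7. In the same test 12 of 13 proliferation markers were called above 0.

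In sorted small pre-B cells, for which no culture is named, those labelled CXCR4-deficient were compared with wild type. The factors differed little: 3 were higher and 7 lower, beside 16.6% and 17.6% of all genes, and the median log2 change was -0.11, against -0.01 over all genes. Gnl3 had 30.2 and 31.5 CPM in sorted CXCR4-deficient cells, against 43.0 and 42.4 CPM in sorted wild-type cells (log2 change -0.47 ± 0.07, adjusted p = 0.000159). Ftsj3 had 92.6 and 84.3 CPM in sorted CXCR4-deficient cells, against 116 and 109 CPM in sorted wild-type cells (log2 change -0.34 ± 0.08, adjusted p = 0.00395). Nop14 changed by -0.34 ± 0.08. These 3 were called lower without each library in turn, and their groups did not overlap. The largest estimate was that of Fbl, with 6.30 and 7.65 CPM, against 8.79 and 12.5 CPM (log2 change -0.61 ± 0.17, adjusted p = 0.0169), and it lost the call without some libraries (adjusted p up to 0.207). Pes1, Wdr43 and Rrp12 were the other 3 lower ones. Rrs1, which loads 5S ribosomal RNA into the large subunit, had 28.7 and 32.3 CPM, against 22.6 and 25.6 CPM (log2 change 0.34 ± 0.09, adjusted p = 0.0129). It was higher, with Pa2g4 (0.31 ± 0.08) and Nop58 (0.23 ± 0.07). The 3 higher calls ended without wild-type replicate 1, and 4 were lower without sorted CXCR4-deficient replicate 1 or either wild-type replicate. With RLE size factors 12 were lower.

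Proliferation markers behaved otherwise in these cells. All 13 were higher, summing to 7249 and 6513 CPM in sorted CXCR4-deficient cells, against 1856 and 1796 CPM in sorted wild-type cells. Mki67 had 2159 and 1915 CPM in sorted CXCR4-deficient cells, against 505 and 462 CPM in sorted wild-type cells (log2 change 2.08 ± 0.15, adjusted p = 6.32e-07). Myc did not pass, at 21.9 and 24.4 CPM, against 22.1 and 21.4 CPM (log2 change 0.09 ± 0.08, adjusted p = 0.427). Myeloid markers summed to 4819 and 828 CPM in sorted CXCR4-deficient cells, against 3804 and 3759 CPM in sorted wild-type cells, so the 2 libraries labelled CXCR4-deficient were far apart in them. Pro-B markers were higher in 4 of 6 and mature B cell markers lower in 5 of 7. Their part was not tested.

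**Figure D5:**
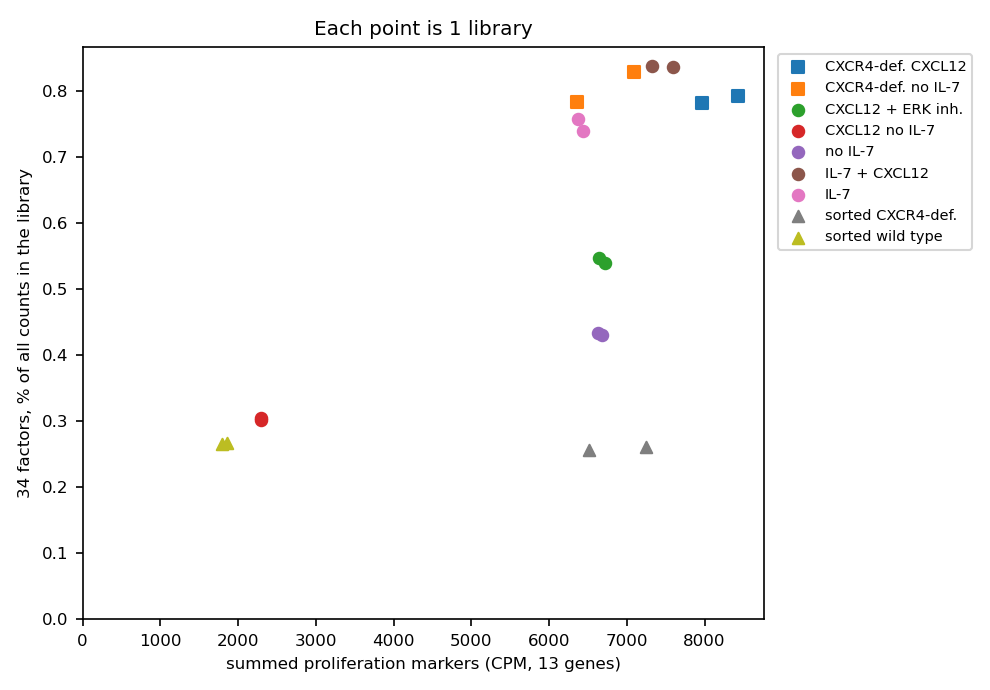
Share of all counts held by the 34 factors (percent, vertical) against the summed CPM of 13 proliferation markers (horizontal), 1 point per library. Sorted CXCR4-deficient cells hold 0.260% and 0.257% at 7249 and 6513 CPM, IL-7 cultures 0.740% and 0.759% at 6438 and 6369 CPM, with 0.267% and 0.265% at 1856 and 1796 CPM in sorted wild-type cells.

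Finally, CXCL12 cultures were compared with sorted wild-type cells, the small pre-B cells with no culture named. Small pre-B cells are the stage of light chain rearrangement. Of the factors 9 were higher and 4 lower in CXCL12 cultures, beside 27.6% and 23.8% of all genes, with a median log2 change of 0.10, against 0.02 over all genes. Rrp12 had 32.1 and 29.9 CPM in CXCL12 cultures, against 20.3 and 19.3 CPM in sorted wild-type cells (log2 change 0.65 ± 0.08, adjusted p = 1.71e-05). Gnl3 had 61.4 and 61.4 CPM, against 43.0 and 42.4 CPM (log2 change 0.52 ± 0.07, adjusted p = 3.01e-05), and Ncl 821 and 822 CPM, against 588 and 579.6 CPM (log2 change 0.49 ± 0.09, adjusted p = 0.000811). These were higher in both cultures. Fbl (-0.54 ± 0.17), Nop56 (-0.42 ± 0.09), Dkc1 (-0.32 ± 0.12) and Ftsj3 (-0.24 ± 0.08) were the 4 lower ones, 3 of them snoRNP proteins. Of these 4 calls that of Nop56 held without each library in turn. The count of lower factors was 1 without CXCL12 culture replicate 1 and 2 without CXCL12 culture replicate 2 or either wild-type replicate. Myc was slightly higher in CXCL12 cultures (27.7 and 25.2 CPM, against 22.1 and 21.4 CPM, log2 change 0.29 ± 0.08, adjusted p = 0.01). Stromal markers summed to 3265 and 3199 CPM in CXCL12 cultures, against 63.3 and 61.3 CPM in sorted wild-type cells, with 10 of 11 tested called higher and 1 lower. Myeloid markers summed to 718 and 714 CPM, against 3804 and 3759 CPM, with 8 of 12 called lower and 2 higher. Proliferation markers were higher in 9 of 13 and lower in 2, and mature B cell markers were lower in 5 of 7. Their part was not tested.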

How the data were processed

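The values are raw read counts per gene symbol, deposited as a single table of 18 RNA-seq libraries (23762 rows, 0 columns of no sample). Stranded libraries of polyadenylated RNA were made from B cells isolated by flow sorting, per the labels' protocols. The submitters' processing notes name STAR, BWA, Picard, featureCounts, bedtools and MACS2 and the build mm9. The sources used here state neither the annotation nor the strand setting, so reads of overlapping genes cannot be told apart, and 7 factors overlap another protein-coding gene (Nop56, Dkc1, Bysl, Bop1, Wdr12, Ftsj3 and Gnl3). The ATAC-seq peak lists were not used here.

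A joint edgeR 4.0.16 model of the 9 groups (R 4.3.3, limma 3.58.1) estimated the spread from all libraries, since a group has 2. It used TMM scaling, the default filter of edgeR on low counts, which left 14862 genes, and robust quasi-likelihood F tests in 12 comparisons. Calls required an adjusted p (Benjamini-Hochberg, per comparison) below 0.05. The SE of a log2 change is its size divided by the square root of F. The procedure was tested on simulated data. Counting error sets the lower limit of precision at 17257914 to 50235192 counts per library.

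The members, roles, pathway lists and marker lists were chosen with earlier results of these data known. Values per library are given for the 2 members of each role with the highest mean log2 CPM. They are also given for the called members with the largest rise and fall of each comparison. Myc and Mki67 are given in some comparisons only, and their absence elsewhere does not mean that they were not called. Dkc1, Rrp12, Gnl3 and Pes1 elsewhere, and members named by a log2 change alone, were picked after their values were seen. Promoters, pseudogenes and overlaps come from RefSeq tables of GRCm38.p6.

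Alternatives changed the scaling (RLE), the filter (none, or 1 CPM reached in 2 libraries) or the tool (DESeq2 1.42.0), fitted a comparison's own groups alone, or added a replicate block. Others were omission of 87 ribosomal protein genes or of the 4 Gapdh-high libraries, and each library left out in turn, where the lone library of a group is assumed to vary like the rest. Summing the 2 libraries of the groups without IL-7 and with CXCL12 in its place, whose counts differed little beyond sampling noise (chi-square per degree of freedom 1.24 and 1.32), was added after the data were seen. Python 3.11.15 with numpy 2.4.6, matplotlib 3.10.9 and pandas 2.3.3 made the summaries.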

Additional observations from a re-analysis of the deposited data

Results flagged for a closer look

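The effect of CXCL12 differed between CXCR4-deficient and sufficient cultures by the edgeR interaction test in 12 of the 34 factors. The log2 change with CXCL12 in CXCR4-deficient minus that in sufficient cultures was 0.64 for Polr1a and 0.80 for Polr1b, subunits of RNA polymerase I. It was 0.49 for Ncl and 0.66 for Ddx21, of nucleolar organisation, and 0.37 for Nop56, 0.60 for Nop58 and 1.13 for Dkc1, of the snoRNPs. Of the small subunit factors it was 0.91 for Heatr1 and 0.63 for Utp20, and of the large subunit factors 0.84 for Rrp1b, 0.69 for Pa2g4 and -0.53 for Pes1. Dkc1, Nop58 and Pa2g4 were called without each of the 8 libraries in turn and the other 9 were not. The 2 CXCR4-deficient cultures without IL-7 were far apart in some of these genes. There Heatr1 had 101 CPM in replicate 1 and 164 CPM in replicate 2, and Pes1 had 198 and 146 CPM.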

How the results depend on the processing

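Counts of called factors were recomputed under alternatives that keep every library, or leave out the 4 Gapdh-high ones. Of 210 such counts, 188 stayed within 1.5 times the reported count and 22 did not. The 188 include counts of 0 that stayed at 0, so they overstate how stable the other counts were. With the groups compared fitted alone, 31 fell with CXCL12 without IL-7 (14 as reported), 28 rose with CXCL12 added to IL-7 (14), 16 were higher in CXCL12 cultures than in sorted wild-type cells (9), and 3 and 0 lay above and below 0 in the interaction (11 and 1). With close pairs summed to 1 library, 19 fell on IL-7 withdrawal (32), 4 with CXCL12 without IL-7 (14), 8 rose with CXCL12 added to IL-7 (14), 1 was lower in CXCL12 cultures than in sorted wild-type cells (4), and 3 and 0 lay above and below 0 in the interaction. In sorted CXCR4-deficient cells 12 were lower with RLE size factors and 13 with DESeq2 (7). For CXCL12 in CXCR4-deficient cultures (4 higher and 12 lower) 0 and 0 were called with the groups fitted alone, with close pairs summed and without the 4 Gapdh-high libraries (edgeR; at an unadjusted p under 0.05, 0 and 0, 5 and 12, and 6 and 12), and 7 were higher with DESeq2. The 1 value below 0 in the interaction became 0 without the Gapdh-high libraries and without ribosomal protein genes (1 at an unadjusted p in each). Omission of ribosomal protein genes moved the median log2 change of all genes in CXCL12 against IL-7 cultures to 0.00 from 0.12, with the factors' median at -1.29. The cause was not tested.

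With 1 library left out the counts ranged as follows: 23 to 27 lower on IL-7 withdrawal, 7 to 9 lower with CXCL12 without IL-7, 32 to 32 lower in CXCL12 against IL-7 cultures, 21 to 24 lower in ERK inhibitor cultures against both factors, 0 to 9 higher and 0 to 18 lower with CXCL12 in CXCR4-deficient cultures, 0 to 2 higher and 4 to 5 lower in sorted CXCR4-deficient cells, 4 to 8 higher with CXCL12 added to IL-7, 24 to 25 higher with the ERK inhibitor, 29 to 34 higher and 0 to 2 lower in CXCR4-deficient against sufficient cultures without IL-7 and 34 to 34 higher with CXCL12, 7 to 8 higher and 1 to 2 lower in CXCL12 cultures against sorted wild type, and 3 to 17 above and 0 to 8 below 0 in the interaction. Without replicate 2 of the CXCR4-deficient cultures without IL-7, 4 estimates against sufficient cultures lay below 0, against 0 with all libraries. Polr1a and Heatr1 were among the 4, at -0.25 and -0.21. In the same fit 15 interaction estimates lay below 0, against 11 with all libraries, and that of Wdr12 reversed to -0.30. The highest values of Polr1a, Heatr1 and Wdr12 with 1 library left out were 0.24, 0.42 and 0.57. Of 5338 recomputed values of single factors, 4763 stayed on the same side of the threshold, 425 lost and 147 gained a call. The 4763 include factors called in neither fit, whose sign could change.

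Correlations of the deviations of same-numbered libraries ran from -0.07 to 0.21 over 11 comparisons, highest for CXCL12 in CXCR4-deficient cultures. With 2 libraries per group they cannot decide whether same-numbered libraries share a culture, mouse or batch. With the replicate number as a block, the counts were 15 in place of 14 lower with CXCL12 without IL-7, 11 in place of 12 lower with CXCL12 in CXCR4-deficient cultures, 8 in place of 7 lower in sorted CXCR4-deficient cells, 13 in place of 14 higher with CXCL12 added to IL-7 and 10 in place of 11 above 0 in the interaction, and the same elsewhere.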
